A study of Mus musculus with 8 samples.

Results

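The miR-465 family is a set of mature miRNAs named miR-465a, miR-465b, miR-465c and miR-465d, counted in RNA from mouse sperm by small RNA sequencing. Its members were chosen by name, and the count table listed 8 of them among 387 mature miRNA entries (mmu-miR-465a-5p, mmu-miR-465b-5p and so on), a 5p and a 3p entry for each of the 4 paralogues. The 8 samples formed 2 groups of 4, Trained and Exposed, all F0 animals of the C57BL/6 strain at 2 months of age. The series examined olfactory treatments and, by its title, olfactory stress, and the labels do not say what either group received. No untreated group was analysed here. Whether a group's 4 samples were 4 animals is not stated, so its spread may be only technical, and the p-values below refer to that spread.

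A miRNA hairpin is cut into a short duplex, whose strands are called 5p and 3p after the arm of the hairpin they come from. The strand kept by an Argonaute protein directs it to messenger RNAs, mainly through bases 2 to 8, the seed. The miR-465 hairpins belong to an X-linked, rapidly evolving rodent miRNA cluster of the miR-506 family, known for expression in the testis and in male germ cells.

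The mature sequences are shown because they decide how far the entries can be told apart by reads. They come from RefSeq (build GRCm38.p6), which held all 8 names, and capitals mark the seed:
mmu-miR-465a-5p: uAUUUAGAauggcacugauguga
mmu-miR-465b-5p: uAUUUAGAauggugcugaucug
mmu-miR-465c-5p: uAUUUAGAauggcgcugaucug
mmu-miR-465d-5p: uAUUUAGAaugguacugauguga
mmu-miR-465a-3p, mmu-miR-465b-3p and mmu-miR-465c-3p: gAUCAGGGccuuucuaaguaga
mmu-miR-465d-3p: uGAUCAGGgccuuucugaguaa

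All 4 of the 5p entries shared a seed, which none of the other 302 listed miRNAs with a RefSeq sequence carried. With positions counted from 1 at the 5′ end, miR-465c-5p differed from miR-465b-5p by the single substitution U13C, outside the seed. miR-465a-5p differed from miR-465b-5p by U13C, G14A and C20G and was 1 base longer. miR-465d-5p differed from miR-465a-5p by C13U alone. The 3p entries of a, b and c were the same sequence, so their reads cannot be assigned to a paralogue from the mature sequence. miR-465d-3p started 1 base earlier than these, which shifted its seed, and differed from miR-465a-3p by A16G and G21A, with positions counted along miR-465a-3p. Outside the family, the closest of these 302 sequences were miR-743a-5p, at 6 edits from miR-465b-5p, and miR-470-3p, at 6 edits from miR-465a-3p. Among listed entries with a RefSeq sequence, the near-identical ones were thus all within the family, and the rest could not be compared.

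In RefSeq the family comes from 6 hairpins, with miR-465b and miR-465c encoded by a pair of identical hairpins each. All lie on the minus strand of chromosome X within 16470 bases (GRCm38.p6), and each overlaps no other gene in the GENCODE annotation of GRCm38. The 1 base that separates the 5p arms of b and c, and the differing loops between identical 3p arms, can be seen in the hairpins, with the mature arms in capitals:
Mir465, chrX:66839052-66839125: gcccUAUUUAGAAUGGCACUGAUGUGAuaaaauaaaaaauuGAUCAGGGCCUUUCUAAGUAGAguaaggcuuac
Mir465b-2, chrX:66835764-66835842: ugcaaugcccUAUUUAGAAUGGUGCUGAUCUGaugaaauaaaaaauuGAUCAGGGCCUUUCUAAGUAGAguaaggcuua
Mir465c-1, chrX:66825955-66826035: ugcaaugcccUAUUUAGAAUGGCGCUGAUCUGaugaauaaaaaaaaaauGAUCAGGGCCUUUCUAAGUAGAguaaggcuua
Mir465d, chrX:66822656-66822713: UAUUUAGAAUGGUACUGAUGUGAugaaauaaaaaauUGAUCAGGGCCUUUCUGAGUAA

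Mir465 is RefSeq's symbol for the hairpin of miR-465a. The second copy of miR-465b, Mir465b-1, lies at 66829202 to 66829280, and the second copy of miR-465c, Mir465c-2, at 66832517 to 66832597. The hairpins alternate c, b, c, b between Mir465d and Mir465, with starts 3247 to 3315 bases apart. The nearest other X-linked hairpin is Mir470, 8630 bases beyond Mir465d. The count table names no genome build, so these positions are those of the RefSeq hairpins of the same names.

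Whole-number read counts summed to between 239664 and 261903 in Trained libraries and between 193013 and 254944 in Exposed libraries over the listed miRNAs. These sums were used as library totals, and levels are given as CPM, the count scaled by that total. The germ cell markers miR-34b, miR-34c and miR-449a, which belong to the labelled tissue, summed to 125776 to 143675 CPM in Trained and 129268 to 134833 CPM in Exposed. Red blood cell miRNAs summed to 448.8 to 19847 CPM in Trained and 455 to 7606 CPM in Exposed, with the highest in Trained 3. These were miR-451a, miR-144, miR-486 and miR-3107-5p, the most abundant of them. Whether miR-3107-5p and miR-486-5p share reads was not tested. Smooth muscle and stroma miRNAs summed to 7320 to 8600 CPM in Trained and 8046 to 15572 CPM in Exposed, with the highest in Exposed 2. Striated muscle miRNAs summed to 554 to 1230 CPM in Trained and 1166 to 2566 CPM in Exposed, and epithelial miRNAs to 1856 to 2475 CPM in Trained and 1997 to 3552 CPM in Exposed, both highest in Exposed 2. Leukocyte miRNAs summed to 1020 to 5242 CPM in Trained, highest in Trained 3, and 977 to 1546 CPM in Exposed. No entry of these marker lists was at 0 over all libraries, and their part in the values below was not tested. In bulk RNA, fewer cells of a type and less RNA per cell cannot be told apart.

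The miR-465 entries together held 13.2% ± 0.81 of all listed counts in Trained and 13.2% ± 0.39 in Exposed (SD, n = 4 each). By library this was 12.99%, 14.3%, 12.3% and 13.2% in Trained 1 to 4, and 13.8%, 13.1%, 13.2% and 12.9% in Exposed 1 to 4. The groups overlapped, and Trained 2 and Trained 3 were the highest and the lowest of the 8. Most of it was 5p, at 10.7% ± 0.85 of listed counts in Trained and 10.6% ± 0.89 in Exposed. Counting the shared 3p sequence once, as its miR-465b-3p entry, in the sum and in the total, left 11.8% ± 0.79 in Trained and 11.8% ± 0.65 in Exposed.

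The 5p paralogues were far from equal. miR-465b-5p was the third most abundant of the 387 entries, miR-465c-5p the sixth, miR-465a-5p ranked 69 and miR-465d-5p ranked 282. miR-465b-5p stood at 60992, 74343, 66395 and 62967 CPM in Trained 1 to 4, against 72572, 57822, 69768 and 60623 CPM in Exposed 1 to 4. Trained 2 and Exposed 1 were the highest and Exposed 2 the lowest, and the groups overlapped.

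miR-465c-5p, which differs by 1 base, stood at 37100, 43152, 37865 and 38183 CPM in Trained 1 to 4, against 41226, 36750, 39413 and 37225 CPM in Exposed 1 to 4. Its highest and lowest libraries were also Trained 2 and Exposed 2. miR-465a-5p had 2200, 2025, 1749 and 2207 CPM in Trained 1 to 4, and 1906, 2283, 1585 and 1974 CPM in Exposed 1 to 4. Here Exposed 2 was the highest and Exposed 3 the lowest. miR-465d-5p had 4 or 5 reads in each Trained library and 2 to 5 reads in each Exposed library, and the expression filter used for the comparison below left it out. Without a count filter its log2 fold change, Trained over Exposed, was 0.078 (SE 0.50, FDR = 0.998 by edgeR). In order of level the family ran miR-465b-5p, miR-465c-5p, miR-465b-3p and miR-465c-3p, miR-465a-3p, miR-465a-5p, miR-465d-3p and miR-465d-5p. Over the 8 libraries only the ranges of the 3p entries of a, b and c overlapped their neighbours in this order.

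**Figure D1:**
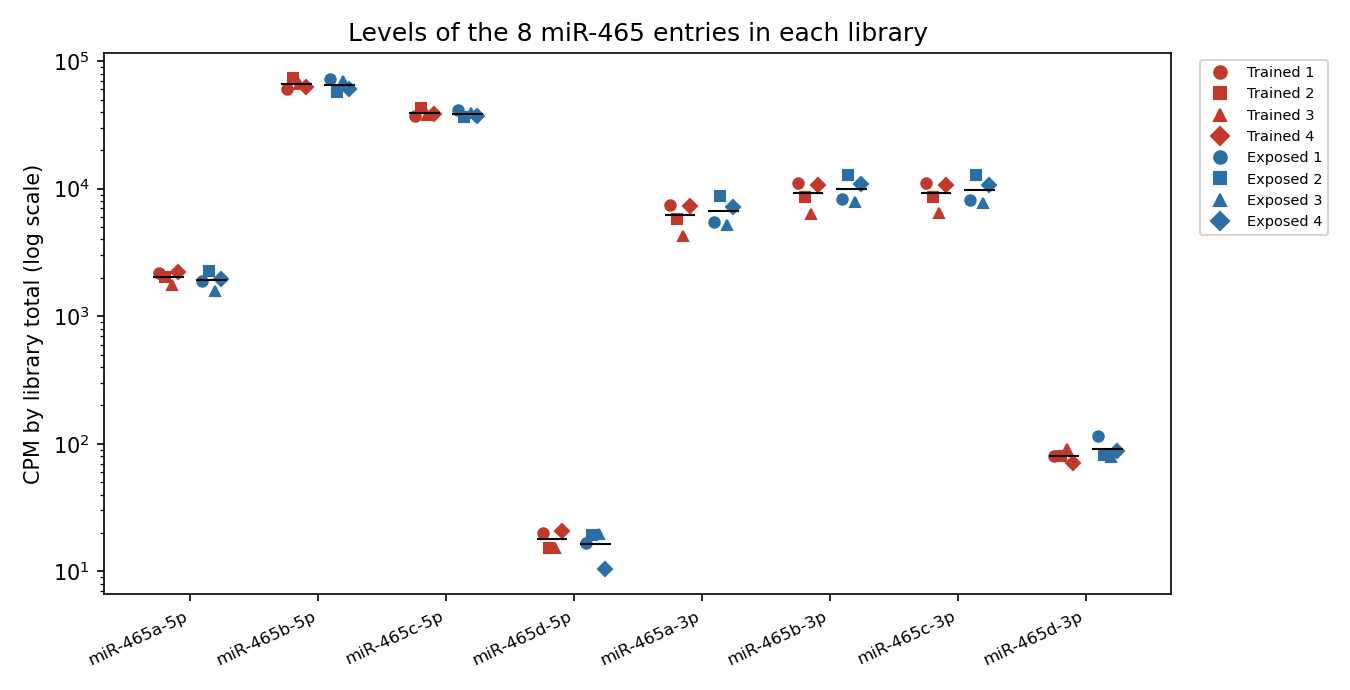
CPM by library total (log axis) of the 8 miR-465 entries, Trained in red left of Exposed in blue, with 1 marker per library and a line at each group mean (n = 4). The 4 markers of each group overlap with those of the other in all 8 entries, and the 3p entries of a, b and c put the libraries in the same order except for Trained 4 and Exposed 4, which change places in miR-465b-3p.

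The 3p entries of a, b and c were lower than miR-465b-5p and miR-465c-5p and more variable. miR-465b-3p stood at 11088, 8646, 6361 and 10703 CPM in Trained 1 to 4, against 8239, 12834, 7845 and 10792 CPM in Exposed 1 to 4. Exposed 2 was 2.02 times Trained 3, while the same ratio of highest to lowest library was 1.29 for miR-465b-5p and 1.17 for miR-465c-5p. Within groups, the coefficient of variation was 23.6% for miR-465b-3p, 9.93% for miR-465b-5p and 6.26% for miR-465c-5p, against a median of 17.0% over the 226 miRNAs tested. Ordered from the most variable down, miR-465b-3p ranked 65 and miR-465c-5p ranked 217 of the 226. Counting noise alone was exceeded by miR-465b-3p, with a chi-square per degree of freedom of 132 in Trained and 126 in Exposed (3 degrees of freedom each). The 5p entries exceeded it as well, miR-465b-5p at 134 in Trained and 170 in Exposed, and miR-465c-5p at 50.1 and 24.7. This value grows with the count, so it does not order the entries by relative spread.

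The 3 identical 3p sequences did not have identical counts. miR-465c-3p had between 0.984 and 1.009 times the count of miR-465b-3p in every library, whereas miR-465a-3p had between 0.660 and 0.681 times that count. In the 8 libraries miR-465a-3p ranged from 4238 CPM in Trained 3 to 8708 CPM in Exposed 2. These near-fixed ratios held while the level of all 3 varied by a factor of about 2. How the authors counted a read that matches several entries is not given in the sources used here, so the 3 entries are not separate measurements, and their sum, 1.70% to 2.95% of listed counts in Trained and 2.08% to 3.42% in Exposed, may count a read more than 1 time. Among the 310 of 387 listed entries with a RefSeq sequence, there were 2 other sets with identical sequences. The rest could not be compared. The lower entry of let-7a-1-3p and let-7c-2-3p had between 0.905 and 1 times the count of the higher, and that of miR-199a-3p and miR-199b-3p between 0.636 and 0.824 times.

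miR-465d-3p, with its shifted seed, was rare, at 79.9, 80.6, 91.6 and 70.9 CPM in Trained 1 to 4, and 115.8, 81.4, 78.4 and 88.1 CPM in Exposed 1 to 4, or 17 to 28 reads a library. It varied by no more than counting noise in Trained (chi-square per degree of freedom 0.224) and in Exposed (0.765). Its 5p entry had only 2 to 5 reads a library, so the arm split of this paralogue is coarse. The 3p arm was the more abundant, at 81.7% ± 3.82 of miR-465d counts in Trained and 84.5% ± 4.71 in Exposed (SD, n = 4 each). The same was true of miR-465a as listed, at 74.7% ± 2.94 and 77.1% ± 2.31 of miR-465a counts in Trained and Exposed, although its 3p entry may hold reads from the b and c hairpins.

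Trained was compared with Exposed over all listed miRNAs that passed an expression filter, 226 in number, the contrast that the 2 label groups imply. By edgeR's quasi-likelihood test with Benjamini-Hochberg adjustment, 0 of the 7 tested miR-465 entries passed a false discovery rate (FDR) of 0.05, beside 0% of all miRNAs tested, and 0 of the 7 had an unadjusted p under 0.05, against 10 of 226. DESeq2 and limma-voom gave 0 at FDR 0.05 as well, with 12 and 9 of 226 at an unadjusted p under 0.05. The CPM ranges of Trained and Exposed overlapped for all 8 miR-465 entries, and 2.21% of the tested miRNAs had ranges that did not.

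The fold changes, Trained over Exposed, were near 0 for the abundant 5p entries. The log2 fold change was -0.010 for miR-465b-5p (SE 0.11, 95% interval -0.26 to 0.24, FDR = 0.998 by edgeR) and -0.016 for miR-465c-5p (SE 0.093, interval -0.22 to 0.19). With library totals in place of TMM factors, which scale libraries to a trimmed mean of their log ratios, they were 0.022 and 0.016. For miR-465a-5p it was 0.048 (SE 0.13, interval -0.24 to 0.33), and 0.26 without Exposed 2 and Trained 3 (SE 0.10, unadjusted p = 0.03 and FDR = 0.71 by edgeR). Exposed 2 was its highest Exposed and Trained 3 its lowest Trained library, and both were left out after seeing the data. The rise follows from that choice, and its p is no test of a difference. miR-465b-5p averaged 66174 ± 5885 CPM over the Trained and 65196 ± 7085 CPM over the Exposed libraries (SD, n = 4 each). miR-465c-5p averaged 39075 ± 2756 CPM over the Trained and 38654 ± 2070 CPM over the Exposed libraries.

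The 3p entries had lower fitted values in Trained and wider intervals. The log2 fold change of miR-465b-3p was -0.14 (SE 0.21, interval -0.61 to 0.33, FDR = 0.998 by edgeR), with means of 9199 ± 2175 CPM over Trained and 9928 ± 2337 CPM over Exposed libraries. It was 0.0094 without Exposed 2, 0.028 without Trained 3 and 0.20 without both. Exposed 2 was the highest Exposed and Trained 3 the lowest Trained library for miR-465b-3p, so leaving them out raised the value. miR-465a-3p, at -0.13, and miR-465c-3p, at -0.13, share its sequence and are not separate results. They stood at 0.027 and 0.022 without Exposed 2, and at 0.039 and 0.038 without Trained 3. miR-465d-3p had a log2 fold change of -0.20 (SE 0.21, interval -0.68 to 0.27), and -0.059 without Exposed 1. With the shared 3p sequence taken once, as miR-465b-3p, 5 distinct sequences were tested. Of these 1 had a higher and 4 a lower fitted value in Trained (median -0.016), beside 117 higher and 109 lower among all 226 (median 0.0049). With library totals in place of TMM factors, 3 were higher and 2 lower (median 0.016), beside 63.3% higher among the 226 (median 0.038) in place of 51.8%, so the split depends on the scaling. The authors' deposited table gave log2 fold changes between -0.20 for miR-465d-3p and 0.061 for miR-465a-5p, in the direction Trained over Exposed, with unadjusted p between 0.449 and 0.991 and an FDR of 1 for all 8 entries.

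**Figure D2:**
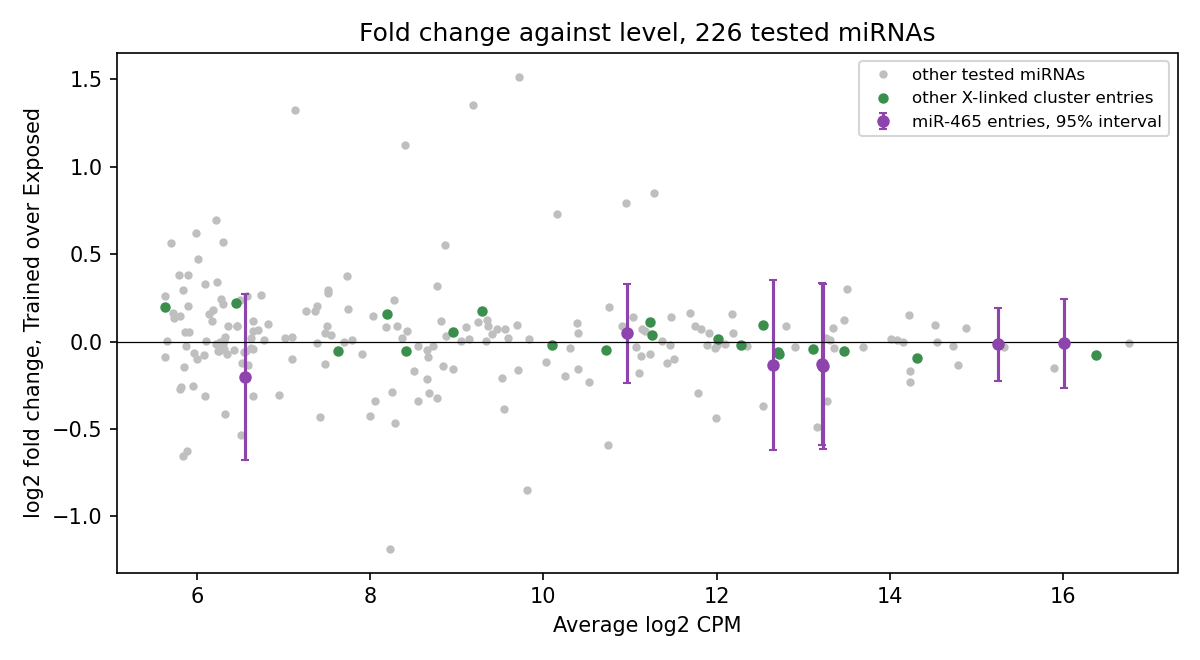
Log2 fold change, Trained over Exposed, against average log2 CPM for the 226 tested miRNAs (grey), with the 7 tested miR-465 entries in purple with 95% intervals and other X-linked cluster entries in green. All 7 intervals include 0, and the 2 on the right, miR-465c-5p and miR-465b-5p, are the narrowest.

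Ratios within the family do not depend on how libraries are scaled, and 3 were compared. In Exposed 4, the library with the fewest counts, the 95% Wilson interval, which covers counting error only, was 61.3% to 62.6% for the first, 1.79% to 2.18% for the second and 5.33% to 5.90% for the third. The share of miR-465b-5p in the counts of miR-465b-5p plus miR-465c-5p was 62.2%, 63.3%, 63.7% and 62.3% in Trained 1 to 4, and 63.8%, 61.1%, 63.9% and 62.0% in Exposed 1 to 4. All 8 values lay within 3 percentage points, at 1.57 to 1.77 reads of miR-465b-5p per read of miR-465c-5p. The difference in means, Trained minus Exposed, was 0.15 percentage points (95% interval -1.72 to 2.54, exact two-sided permutation p = 0.83, adjusted 0.83 over the 3 ratios). The difference was -0.36 without Exposed 2, -0.12 without Trained 3 and 0.56 without Exposed 3. With 70 assignments, 0.0286 is the smallest p this design allows.

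The share of miR-465a-5p in 5p counts was 2.19%, 1.69%, 1.65% and 2.14% in Trained 1 to 4, and 1.65%, 2.36%, 1.43% and 1.98% in Exposed 1 to 4. Trained minus Exposed was 0.065 percentage points (95% interval -0.71 to 0.76, exact permutation p = 0.771, adjusted 0.83), and -0.076 without Exposed 3 and 0.32 without both Exposed 2 and Trained 3. Exposed 2 was the highest Exposed and Trained 3 the lowest Trained library for this share. The share of miR-465a-3p in all miR-465 counts was 5.72%, 4.07%, 3.44% and 5.51% in Trained 1 to 4, and 3.95%, 6.64%, 3.96% and 5.61% in Exposed 1 to 4. Its denominator also held the 3p entries of b and c, which have the same sequence, and of d. This share is therefore not a split of counts between the arms. Its Wilson interval takes those entries as separate counts, which they may not be. Trained minus Exposed was -0.35 percentage points (95% interval -3.19 to 1.77, exact permutation p = 0.714, adjusted 0.83), and 0.18 without Exposed 2 and 0.062 without Trained 3.

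Within each group the libraries differed in these shares by more than counting noise. For the miR-465b-5p share the chi-square per degree of freedom was 6.28 in Trained and 18.1 in Exposed, and for the miR-465a-3p share 90.3 and 111 (3 degrees of freedom each). The values for the miR-465a-3p share take the other 3p entries as separate counts, so they are no exact measure against counting noise. The 3 shares split the libraries alike, but all have miR-465b-5p counts in their denominators and are not separate observations. Trained 1, Trained 4, Exposed 2 and Exposed 4 had the 4 highest miR-465a-3p shares, the 4 highest miR-465a-5p shares and the 4 lowest miR-465b-5p shares. With all 3p entries summed, 3p made up 21.8% to 26.2% of miR-465 counts in those 4 libraries and 13.9% to 16.2% in the other 4, with none in between. Counted once, as its miR-465b-3p entry, the shared sequence left 3p at 9.44% to 11.8% in those 4 and 5.74% to 6.80% in the other 4. The 4 libraries with more 3p had totals of 193013 to 250458 counts and the other 4 had 241885 to 261903 counts, and the part of depth was not tested. Each set held 2 Trained and 2 Exposed libraries, and the labels give no batch that separates them.

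**Figure D3:**
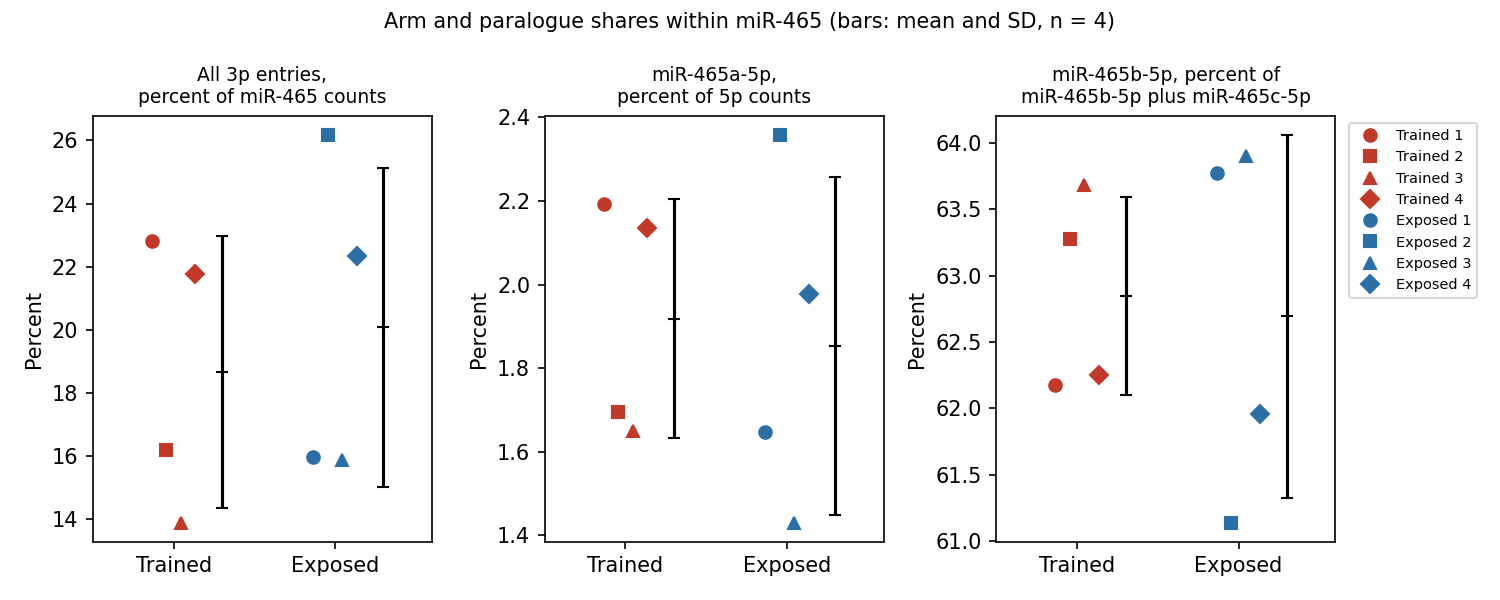
Shares in percent within miR-465 for each library, Trained in red left of Exposed in blue, with the mean and SD of each group (n = 4) as bars. In each panel 2 Trained and 2 Exposed libraries sit apart from the other 4, and the group means differ by less than the spread within a group.

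The arms of other X-linked miRNAs of the same clusters were compared as far as both were counted. Of these, 7 miRNAs had at least 10 reads from each arm in every library. The ratio of 3p to 5p counts of miR-465, with the shared 3p sequence counted once, varied 2.19-fold between the highest and the lowest library, and those of the 7 others between 1.54-fold for miR-871 and 2.41-fold for miR-743a. In miR-463, miR-743a and miR-743b the 4 libraries with the highest ratio were the same 4 as in miR-465. In miR-471 they were the other 4, and miR-741, miR-871 and miR-878 had mixed orders. The ratios share their libraries, so these are not independent observations.

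**Figure D4:**
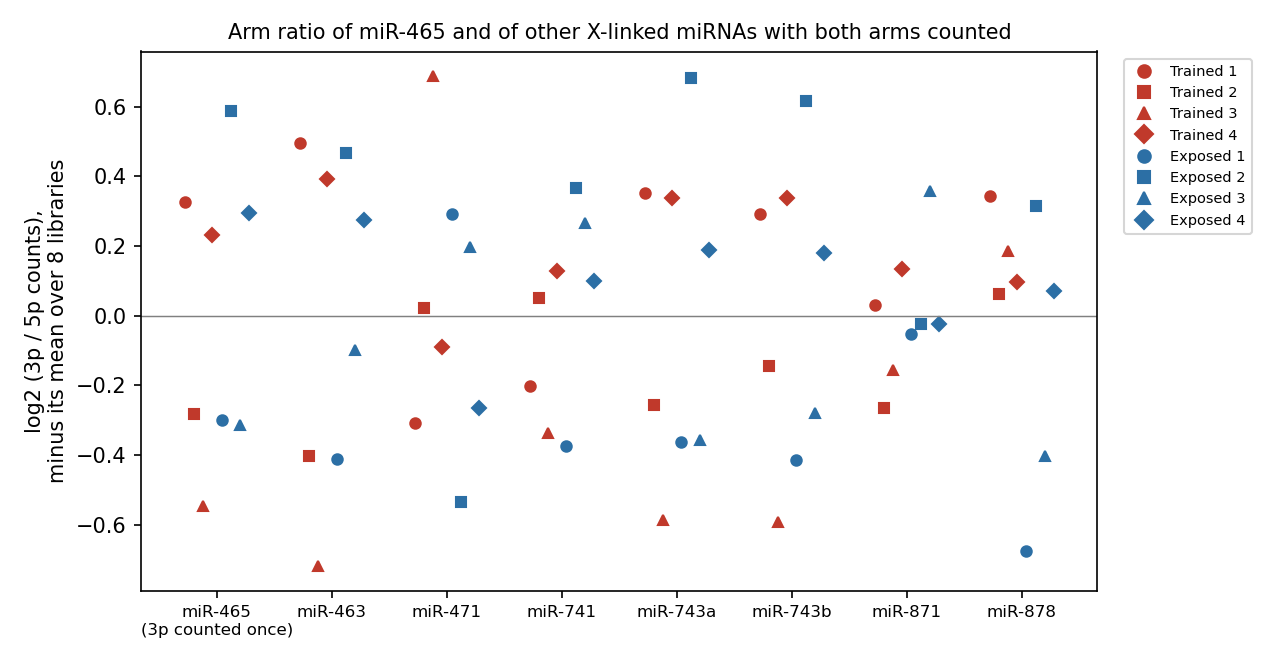
Log2 ratio of 3p to 5p counts, minus its mean over the 8 libraries, for miR-465 (shared 3p sequence counted once) and 7 other X-linked miRNAs, with 1 marker per library. Exposed 2 is highest and Trained 3 lowest for miR-465, miR-743a and miR-743b, and the order is turned round for miR-471.

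The rest of the X-linked clusters had 23 listed entries, of which 20 were tested. Of the 20, Trained had higher fitted values for 9 and lower ones for 11. The median log2 fold change was -0.020 beside 0.0049 for all 226, and 0 passed FDR 0.05 by edgeR. As ratios of mean CPM by library total, the medians were 0.013 for the 20 and 0.037 for the 226. The 5 most abundant were miR-881-3p, miR-743b-3p, miR-871-3p, miR-470-5p and miR-878-5p, with log2 fold changes between -0.095 and -0.045. miR-881-3p averaged 83212 ± 21810 CPM over the Trained and 85891 ± 14071 CPM over the Exposed libraries (SD, n = 4 each), above miR-465b-5p in mean level. Like the 3p entries of miR-465a, b and c, miR-881-3p, miR-743b-3p and miR-878-5p were highest in Exposed 2 and lowest in Trained 3, with 1.89, 2.12 and 1.46 times as many CPM in the highest as in the lowest library.

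The miRNAs whose level across libraries was most like the summed miR-465 5p level were found among the 219 other tested miRNAs, over 8 libraries. The summed 5p level was 100312, 119535, 106024 and 103378 CPM in Trained 1 to 4, and 115720, 96874, 110785 and 99833 CPM in Exposed 1 to 4. The 5 highest Pearson correlations were those of miR-292-5p (r = 0.94), miR-340-5p (0.92), miR-128-3p (0.91), miR-183-5p (0.91) and miR-743a-5p (0.91), with Spearman's rho of 0.93, 0.90, 0.90, 0.79 and 0.90. miR-743a-5p is the only X-linked neighbour among these 5. The 3 lowest were those of miR-21a-5p (r = -0.91, rho = -0.83), miR-30d-5p (r = -0.88, rho = -0.83) and miR-342-5p (r = -0.85, rho = -0.74). Of the 219, 0 passed an adjusted p of 0.05 in exact permutation tests, and the 6 with the strongest r had an unadjusted p between 0.000546 and 0.0027 and an adjusted p of 0.0846. The smallest adjusted p of rho was 0.143. Without Trained 2 and Exposed 1, the libraries farthest from the median, r was 0.77, 0.86, 0.90, 0.91 and 0.91 for the first 5, and -0.69, -0.92 and -0.49 for the last 3. CPM values share a library total, which ties abundant miRNAs to each other.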

How the data were processed

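Small RNA libraries were made from sperm RNA (Qiagen miRNeasy kit) and read on a NextSeq500, single-end, 50 nt, per the labels' protocols. The count table deposited by the authors gives raw counts per mature miRNA entry. The sources used here do not say which aligner, miRNA reference, genome build or filter was used, or how a read matching several entries was counted. The log2 fold changes and p-values with FDR quoted as deposited are the authors', per the file headers, as are group means of the counts, recorded as a score and not used; the submitters' processing notes name edgeR.

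Groups and replicate numbers came from the sample titles. The members, lists and tests were chosen with earlier results of these data known. Members are all entries named miR-465a to miR-465d. Other miRNAs were named by rule: the 5 highest and 3 lowest correlations (log2 of CPM plus 1) with the summed miR-465 5p level, any listed miRNA sharing a seed, and the 5 most abundant of the X-linked list. The arm balance had been set as miR-465a-3p over all entries before the other 3p entries were known to be listed. Set in this way, it leaves those entries in the denominator and is not a split between the arms. Versions with all 3p entries, or with the shared sequence counted once, and fits without Exposed 2 and Trained 3, were added after seeing the data.

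Main fits used edgeR 4.0.16 under R 4.3.3: TMM factors, the default filter by group (226 kept, 161 left out), robust quasi-likelihood F tests and Benjamini-Hochberg adjustment, tested on simulated data. Standard errors were derived from each fold change and its p. DESeq2 1.42.0 and limma-voom (limma 3.58.1) were alternatives. Shares used exact permutation tests over 70 assignments, inverted for 95% intervals. Other settings were other scaling factors and filters, the replicate block, summed 5p entries, library sizes without miR-465 and leaving out each library. Library totals of 193013 to 261903 counts set the precision. Counts are reads, not molecules, and chi-square values cover counting error only. Sequences and positions are RefSeq's (GRCm38.p6); 310 of 387 names matched.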

Additional observations from a re-analysis of the deposited data

How the results depend on the processing

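The count of miRNAs past FDR 0.05 was 0 under every setting run, with 5 to 18 at an unadjusted p under 0.05. No miR-465 fold change passed FDR 0.05 and no share had an exact p under 0.05 under any of them. For the shares, the exact test cannot go under 0.05 with libraries left out or with the replicate block, so those settings could not have passed. Signs were not stable. The log2 fold change of miR-465b-5p was 0.022 with library totals, 0.013 with no count filter, 0.0037 with the filter of 10 CPM in 4 libraries, 0.021 with library sizes without miR-465 and 0.0029 with the shared 3p sequence counted once. That of miR-465c-5p was 0.016 with library totals, 0.0086 with no filter, 0.016 with library sizes without miR-465 and 0.029 without Exposed 2 and Trained 3. Summing the 5p entries gave -0.011, against 0.048 for miR-465a-5p alone. Without Exposed 2 and Trained 3 the values were 0.26 for miR-465a-5p, 0.22 for miR-465a-3p, 0.20 for miR-465b-3p and 0.21 for miR-465c-3p, -0.64 percentage points for the miR-465b-5p share, 0.32 for the miR-465a-5p share and 0.59 for the miR-465a-3p share. That value of miR-465a-5p was the only miR-465 log2 fold change with an unadjusted p under 0.05 in any fit run (FDR = 0.71 by edgeR). The pair was picked after seeing the data, so that p is no test of a difference. Exposed 2 was the highest Exposed and Trained 3 the lowest Trained library for these 4 entries and for the miR-465a-5p and miR-465a-3p shares. For the miR-465b-5p share they were the lowest Exposed and the highest Trained library. Leaving out both moved each value in the direction that follows from this.

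Leaving out 1 library gave log2 fold changes of -0.026 to 0.14 for miR-465a-5p, -0.060 to 0.045 for miR-465b-5p, -0.042 to 0.025 for miR-465c-5p, -0.23 to 0.039 for miR-465a-3p, -0.23 to 0.028 for miR-465b-3p, -0.22 to 0.038 for miR-465c-3p and -0.26 to -0.059 for miR-465d-3p. The share differences ran from -0.36 to 0.56 points for miR-465b-5p, -0.076 to 0.23 for miR-465a-5p and -0.72 to 0.18 for miR-465a-3p, and the family's share of counts from -0.39 to 0.26. With 3 against 4 libraries the exact test cannot go below 0.05.

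With all 3p entries summed the arm difference was -1.42 points (exact permutation p = 0.657), and with miR-465a alone -2.41 (exact permutation p = 0.314). Counting the shared 3p sequence once gave -0.75 points (exact permutation p = 0.657). The replicate block gave -0.0086 for miR-465b-5p and -0.15 for miR-465b-3p and changed no call. The deviations of same-numbered libraries from their group means correlated at r of -0.41, 0.66, 0.69 and 0.49 for numbers 1 to 4. Not every library correlated best with its own number, the labels do not say what a number marks, and pairing was not assumed.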
